A study of Moricandia suffruticosa and Brassica napus with 23 samples.

Results

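The sigma factors of the plastid RNA polymerase were followed in leaves of Brassica napus, an allotetraploid crop with an A and a C subgenome, so that most genes have several copies. Every gene whose best Arabidopsis match is SIG1, SIG2, SIG3, SIG4, SIG5 or SIG6 was taken, which gave 20 genes of the 101040 in the table (88392 of these have an Arabidopsis match, at 21772 loci). SIG1 (AT1G64860) and SIG3 (AT3G53920) had 2 copies each. SIG2 (AT1G08540), SIG4 (AT5G13730), SIG5 (AT5G24120) and SIG6 (AT2G36990) had 4 copies each. The series compares Brassica napus with its relative Moricandia suffruticosa under drought and heat in 23 samples, and the 14 samples of Moricandia suffruticosa were not analysed here.

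The 9 libraries used were of leaf RNA, 3 per group. In the drought group water was withheld for 3 days. The heat group was held at 40 °C for 3 h. The control group was not treated. All plants, the controls included, were 35 days old and came from soil in a 25 °C chamber (16 h light, 60% humidity). The labels name no genotype beyond a line code, do not say whether libraries of a group come from separate plants, and give no time of day for the harvests. The p-values below therefore measure the spread between libraries, which may be technical.

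Plastid genes are read by a polymerase of bacterial type, whose core is encoded in the plastid genome, and by phage-type polymerases encoded in the nucleus. The core of the bacterial type cannot find a promoter by itself: a nuclear-encoded sigma factor, imported into the plastid, brings it to a subset of genes and is then released. In Arabidopsis SIG2 and SIG6 act early in greening, SIG1 is a regulated factor of photosystem genes, SIG3 and SIG4 serve few promoters, and SIG5 is induced by blue light and by several stresses, is set by the circadian clock and acts on the light-responsive promoter of psbD.

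Levels are given in FPKM, reads scaled by coding length and library size. They can be set against each other between genes only as far as the lengths of the gene models are right. The libraries held between 12173804 and 12934922 assigned reads, so a single read on a 1 kb coding sequence stood for 0.0773 to 0.0821 FPKM. Log expression correlated between libraries at r of 0.983 to 0.986 within groups and 0.805 to 0.893 between groups, and no library stood apart. The leaf label was met by RCA, the Rubisco activase, at a mean summed level of 21870 FPKM in drought, 8288 FPKM in heat and 24731 FPKM in control leaves, and by CAB1, a light-harvesting protein, at 2041 FPKM in drought, 16391 FPKM in heat and 6444 FPKM in control leaves. RCA was called lower in heat (log2 change -1.58), and CAB1 was called lower in drought (-1.66) and higher in heat (1.35), so RCA and CAB1 did not move together. The third mesophyll marker, RBCS1A, averaged only 2.76 FPKM in drought, 0.77 FPKM in heat and 2.4 FPKM in control leaves. At levels this low it was not read as a measure of mesophyll. The phloem markers SUC2 and APL were not called, with log2 differences of -0.08 and 0.13 in drought and 0.46 and 0.57 in heat (adjusted p = 7.2e-08 and 9.67e-06 in heat), and the guard cell markers MYB60 and KAT1 were not called either, with 0.23 and -0.54 in drought and 0.07 and 0.33 in heat. By adjusted p alone, 1 guard cell marker was higher and 1 lower in drought, and 1 was higher in heat. Of the markers of other organs, the seed storage gene CRC was at 0 in all 9 libraries, CRA1 and the root gene CASP2 stayed at or under 0.127 FPKM, and the flower genes AP3 and AG at or under 1.27 FPKM. The root marker CASP1 was at 0.135 to 0.91 FPKM in drought, 0.256 to 0.376 FPKM in heat and 2.13 to 2.52 FPKM in control leaves, lower in both stress groups. The part of these markers in the results below was not tested. In bulk tissue, fewer cells of a type and less RNA per cell cannot be told apart.

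SIG5, the stress and light responsive factor, had the highest level of the 6 loci in drought and control leaves and differed most between groups. Its 4 copies together had 323, 333 and 316 FPKM in drought, 58.0, 50.4 and 57.4 FPKM in heat and 173, 170 and 169 FPKM in control leaves. No group overlapped another: every drought library was above every control library, and every heat library was below every control library. The ratio of means was 1.9 for drought over control, 0.324 for heat over control and 0.17 for heat over drought.

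**Figure D1:**
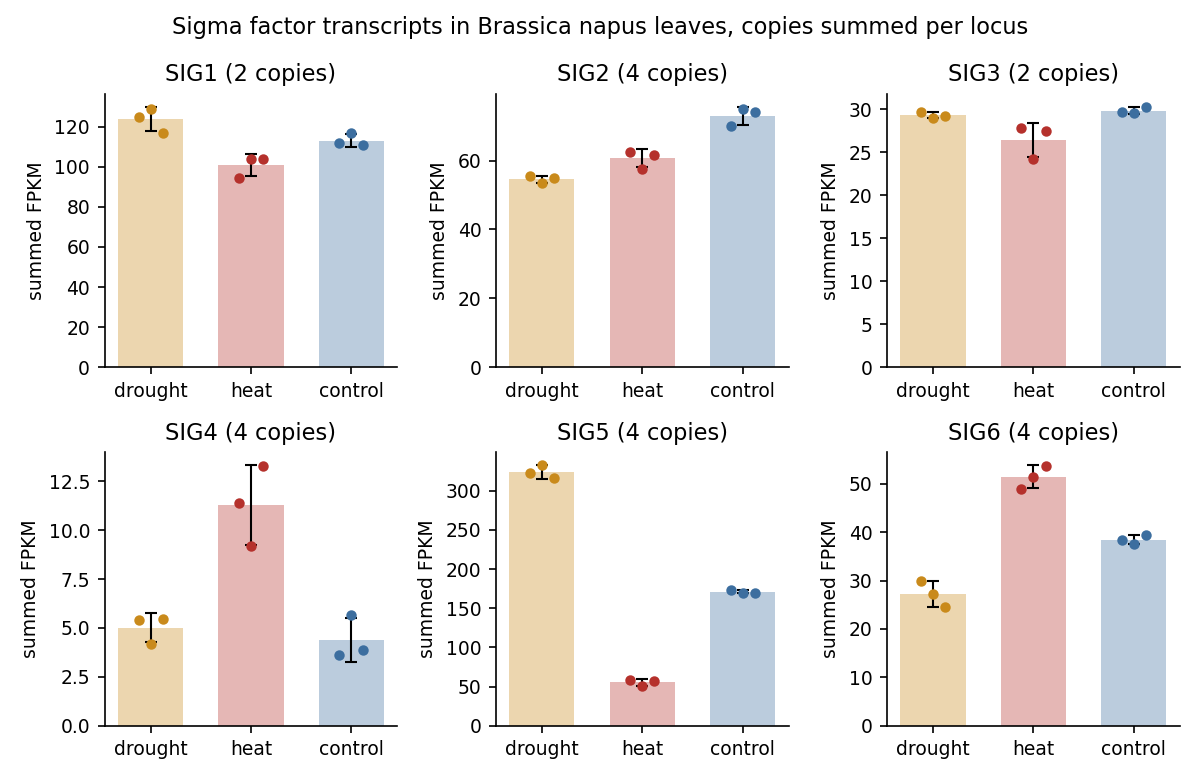
Summed FPKM of each sigma factor locus (vertical axis, from 0) in drought, heat and control leaves; dots are the 3 libraries, bars the mean and error bars the SD. SIG5 averaged 324 FPKM in drought, 55.3 FPKM in heat and 171 FPKM in control leaves, and SIG4 averaged 11.3 FPKM in heat against 4.39 FPKM in control leaves.

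Changes were tested with limma on log2(FPKM + 1) over all genes or loci, and a gene or locus was called at a Benjamini-Hochberg adjusted p under 0.05 together with a change of at least 2-fold. Smaller changes are given as values. By this rule the SIG5 sum fell in heat, with a log2 difference from control of -1.61 ± 0.05 (SE, adjusted p = 1.57e-11). It was also lower in heat than in drought, by a log2 difference of -2.53 ± 0.05 (adjusted p = 1.76e-13). In drought the difference from control was 0.92 ± 0.05 (adjusted p = 6.64e-09), just under the 2-fold threshold, and it was 1.02 with trimmed-mean (TMM) scaling, which passes it. Both stress comparisons use the same 3 control libraries, so they are not independent of each other.

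All 4 SIG5 copies fell in heat. BnaC09g04550D, the most abundant, had 152, 150 and 146 FPKM in drought, 30.6, 24.7 and 31.9 FPKM in heat and 82.4, 81.3 and 81.3 FPKM in control leaves, a log2 change of -1.47 in heat (adjusted p = 2.46e-08). Next came BnaA09g04990D with 87.2, 95.2 and 89.7 FPKM in drought, 19.4, 19.2 and 17.9 FPKM in heat and 52.3, 51.1 and 50.1 FPKM in control leaves, a log2 change of -1.40 in heat (adjusted p = 2.36e-09). For each of these copies the 3 groups stood apart with no overlap. In drought they were above control by log2 differences of 0.86 and 0.81, under the 2-fold threshold.

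The other SIG5 copies were less abundant and were called in both stresses. BnaA06g26690D had 41.5, 43.5 and 36.8 FPKM in drought, 3.46, 2.98 and 3.46 FPKM in heat and 17.9, 19.2 and 19.4 FPKM in control leaves. It rose in drought by a log2 change of 1.07 (adjusted p = 1.74e-06) and fell in heat by a log2 change of -2.21 (adjusted p = 2.03e-09). BnaC07g30280D had 42.7, 45.1 and 42.9 FPKM in drought, 4.54, 3.55 and 4.17 FPKM in heat and 20.2, 18.8 and 18.2 FPKM in control leaves. It rose in drought by a log2 change of 1.15 (adjusted p = 8.62e-07) and fell in heat by a log2 change of -1.98 (adjusted p = 4.61e-09).

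Whether SIG5 copies differ in their response was tested on each copy minus the mean of the other copies of its locus. In heat the difference was -0.59 for BnaA06g26690D and -0.29 for BnaC07g30280D, and 0.49 for BnaA09g04990D and 0.39 for BnaC09g04550D (adjusted p = 0.00171, 0.0408, 0.00336 and 0.00533 in that order). None reached 2-fold. In drought these differences lay between -0.21 and 0.24, with adjusted p of 0.13 or more. The copies with the deeper drop in heat hold 587 and 561 residues, and the others hold 488 and 503. The A copies made up 39.8 to 41.6% of the SIG5 sum in drought, 37.2 to 44% in heat and 40.6 to 41.3% in control leaves, so the balance of the subgenomes overlapped between all groups.

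SIG4, which in Arabidopsis serves the promoter of ndhF, was the least abundant locus and the other one called. Its sum was 5.42, 4.19 and 5.45 FPKM in drought, 11.4, 9.21 and 13.3 FPKM in heat and 3.61, 5.65 and 3.89 FPKM in control leaves. The heat libraries were above all others, and drought and control libraries overlapped. SIG4 rose in heat, with a log2 change of 1.2 ± 0.16 (SE, adjusted p = 2.48e-05), and the drought difference was 0.17 ± 0.16 (adjusted p = 0.389). Between the stresses it was higher in heat than in drought by a log2 difference of 1.03 ± 0.16 (adjusted p = 8.95e-05). That call is lost with TMM or quantile scaling, where the difference was 0.77 and 0.78, and without heat replicate 3 or drought replicate 2, where it was 0.91 and 0.92.

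BnaC09g43350D was the most abundant SIG4 copy. It had 4.95, 3.92 and 4.72 FPKM in drought, 7.85, 7.66 and 9.68 FPKM in heat and 1.69, 2.54 and 1.75 FPKM in control leaves, and the groups did not overlap. It rose in heat by a log2 change of 1.66 (adjusted p = 1.41e-06), and its drought difference of 0.89 (adjusted p = 0.000372) was under the 2-fold threshold. That difference passed the threshold with a pseudocount of 0.1 (1.16), with voom on recovered reads (1.19) and without control replicate 2 (1.02). Its share of the SIG4 sum was 86.6 to 93.7% in drought, 68.6 to 83.1% in heat and 44.9 to 46.7% in control leaves.

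The remaining SIG4 copies were close to the limit of counting. BnaA02g01830D had 0.402, 0.198 and 0.128 FPKM in drought, 2.52, 0.65 and 2.04 FPKM in heat and 1.09, 1.84 and 0.961 FPKM in control leaves, which rest on 2 to 40 reads per library. Its drought libraries were below all others, with a log2 difference from control of -0.87 (adjusted p = 0.0178), which is -2.06 and called with a pseudocount of 0.1, and it was higher in heat than in drought by 1.07 (adjusted p = 0.00346), a call that is lost with TMM (0.96) or quantile scaling (0.9) and without heat replicate 1 (0.86) or 3 (0.96). With a pseudocount of 0.1 the value was 2.32, still called. BnaC02g04970D averaged 0.214 FPKM in drought, 0.763 FPKM in heat and 0.999 FPKM in control leaves, and BnaC09g42960D averaged 0.0317, 0.414 and 0.0952 FPKM in those groups. Neither passed the filter of at least 1 FPKM in 3 libraries, and BnaC09g42960D is a partial model that covers 55.37% of the Arabidopsis protein.

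Set against each other, the SIG4 copies that were tested parted in both stresses. The log2 difference of BnaC09g43350D from BnaA02g01830D was higher than in control leaves by 1.77 in drought (adjusted p = 0.000387) and by 1.46 in heat (adjusted p = 0.000511). With no filter on low values, where BnaA02g01830D is set against a mean that also holds the scarcest copies, its difference was -0.9 in drought and -0.41 in heat, and neither was called. BnaC09g43350D, set against the other copies in the same way, kept its call in drought and in heat.

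SIG6, a factor of early chloroplast development, was lower in drought and higher in heat, in each case by less than 2-fold. Its sum was 29.9, 27.2 and 24.5 FPKM in drought, 49.0, 51.5 and 53.8 FPKM in heat and 38.5, 37.6 and 39.5 FPKM in control leaves, with no overlap between groups. The log2 difference from control was -0.49 ± 0.07 in drought (SE, adjusted p = 6.1e-05) and 0.41 ± 0.07 in heat (adjusted p = 0.000184). Heat against drought gave 0.90 ± 0.07 (adjusted p = 1.07e-07).

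Within SIG6, BnaA04g21190D had 13.1, 13.9 and 12.9 FPKM in drought, 31.3, 30.3 and 32.6 FPKM in heat and 21.8, 20.1 and 21.7 FPKM in control leaves. It was called higher in heat than in drought, by a log2 difference of 1.18 (adjusted p = 3.84e-08), and the difference was 0.91 with TMM scaling, which is under the threshold. BnaAnng21640D, a model of 338 residues that covers 61.79% of the Arabidopsis protein, had 14.9, 10.8 and 9.39 FPKM in drought, 15.7, 18.7 and 18.8 FPKM in heat and 15.3, 15.9 and 16.3 FPKM in control leaves. Its heat and control libraries overlapped.

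By the gene models as deposited, the C subgenome contributed little to SIG6. BnaC03g20450D had 1.94, 2.46 and 2.20 FPKM in drought, 2, 2.48 and 2.41 FPKM in heat and 1.29, 1.57 and 1.55 FPKM in control leaves, and BnaC03g20440D was at 0 in all 9 libraries. These neighbours by number are unusual models: BnaC03g20450D has 876 residues, of which 43.26% align to SIG6, and BnaC03g20440D has 149 residues that cover 23.03% of SIG6. FPKM is scaled by coding length, so the long model lowers the value of BnaC03g20450D. It rests on 43 to 82 reads per library, against 122 to 245 for BnaAnng21640D and 260 to 681 for BnaA04g21190D. Relative to the other copies, BnaC03g20450D was 0.90 higher and BnaA04g21190D 0.61 lower on the log2 scale in drought than in control leaves (adjusted p = 0.00188 and 0.00277), both under 2-fold. The value of BnaC03g20450D passed 2-fold with a pseudocount of 0.1 (1.11, adjusted p = 0.00732) and without drought replicate 1 (1.05, adjusted p = 0.0012).

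SIG2, which in Arabidopsis serves plastid transfer RNA genes, was lower in both stresses by less than 2-fold. The sum was 55.5, 53.6 and 54.9 FPKM in drought, 62.6, 57.7 and 61.7 FPKM in heat and 70.0, 75.1 and 74.1 FPKM in control leaves. All drought and all heat libraries were below all control libraries. The log2 difference was -0.41 ± 0.05 in drought (SE, adjusted p = 1.13e-05) and -0.26 ± 0.05 in heat (adjusted p = 0.000323).

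In drought all 4 SIG2 copies were below their control range, with log2 differences of -0.56 for BnaA06g04930D, -0.35 for BnaC08g13610D, -0.33 for BnaA08g26880D and -0.31 for BnaC05g06190D, all at an adjusted p under 0.05. In heat BnaA06g04930D had 23.1, 21.7 and 23.4 FPKM against 19.1, 22.9 and 20.6 FPKM in control leaves, which overlap. BnaA08g26880D had 7.23, 7.36 and 7.68 FPKM in heat against 11.9, 13.4 and 11.1 FPKM in control leaves, all lower, with a log2 difference of -0.64 (adjusted p = 6.45e-05). Against the other copies, the heat difference was 0.59 for BnaA06g04930D (adjusted p = 0.000685) and -0.43 for BnaA08g26880D (adjusted p = 0.0104), so the copies parted by less than 2-fold. BnaA06g04930D made up 24.4 to 26.1% of the SIG2 sum in drought, 36.9 to 38.0% in heat and 27.3 to 30.5% in control leaves.

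SIG1 and SIG3 varied least in their sums. SIG1 had 125, 129 and 117 FPKM in drought, 94.6, 104 and 104 FPKM in heat and 112, 117 and 111 FPKM in control leaves, with log2 differences from control of 0.12 (adjusted p = 0.0526) and -0.17 (adjusted p = 0.00951). BnaA02g20170D averaged 58.9 ± 1.8 FPKM in drought, 51.5 ± 1.90 FPKM in heat and 56.1 ± 2.31 FPKM in control leaves, and BnaCnng23900D averaged 64.9 ± 4.81, 49.3 ± 3.56 and 57.2 ± 1.51 FPKM in those groups (SD, n = 3 each). The tests of one copy against the other gave adjusted p of 0.119 or more for SIG1 in all 3 comparisons.

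For SIG3 a sum that changed little held copies that moved apart in heat. The sum was 29.7, 29.0 and 29.2 FPKM in drought, 27.8, 24.2 and 27.4 FPKM in heat and 29.7, 29.5 and 30.3 FPKM in control leaves. Its log2 difference from control was -0.02 in drought (adjusted p = 0.765) and -0.17 in heat (adjusted p = 0.0271). All heat libraries were below all control libraries. The A copy BnaA04g04490D had 18.7, 18.1 and 18.2 FPKM in drought, 10.5, 9.66 and 11.8 FPKM in heat and 17.8, 17.1 and 17.7 FPKM in control leaves, so its heat libraries were the lowest. The C copy BnaC04g26820D had 11 FPKM in each drought library, 17.2, 14.5 and 15.6 FPKM in heat and 11.9, 12.4 and 12.6 FPKM in control leaves, so its heat libraries were the highest.

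The A copy thus made up 62.2 to 63.0% of SIG3 in drought, 37.9 to 43.1% in heat and 57.9 to 59.9% in control leaves. Its log2 difference from the C copy changed by -1.21 in heat against drought (adjusted p = 1.09e-05) and by -1 ± 0.10 in heat against control (SE, adjusted p = 4.05e-05). The value against control sits at the threshold: without heat replicate 1 or control replicate 1 it was -0.93 and -0.97, and the call was lost there, without heat replicate 2 and with TMM scaling. Alone, each copy differed from control by less than 2-fold in heat, with -0.67 for BnaA04g04490D (adjusted p = 2.2e-05) and 0.33 for BnaC04g26820D (adjusted p = 0.00368). Over the other settings run, these values spanned -0.85 to -0.61 and 0.15 to 0.39, so the size of the smaller rise depends on the processing. Copies of a locus may share reads, and how such reads were counted is not stated in the labels. What a shared read adds to a copy or to a locus sum was not tested.

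**Figure D2:**
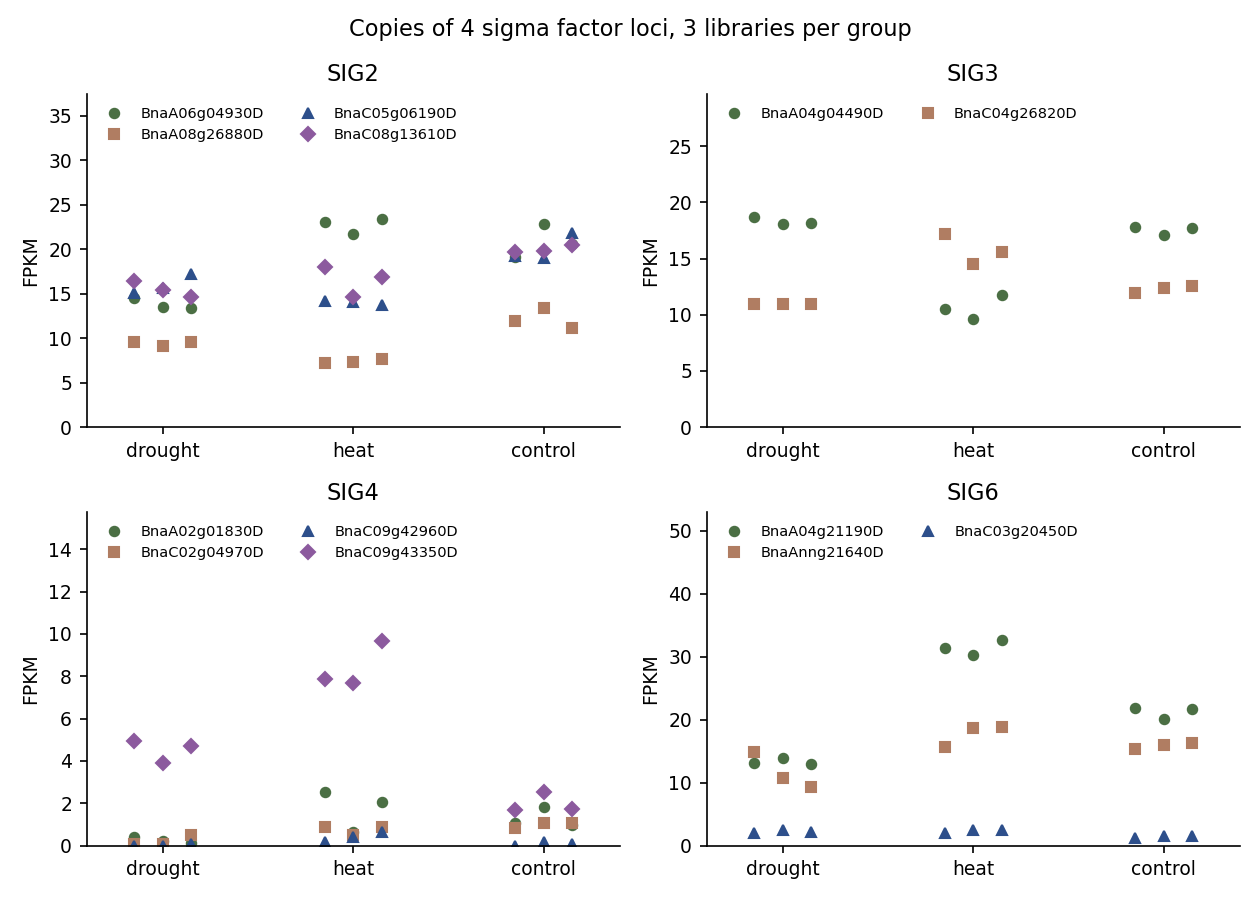
FPKM of single copies (vertical axis, from 0) of SIG2, SIG3, SIG4 and SIG6 in drought, heat and control leaves; each symbol is 1 library and each shape 1 copy. BnaA04g04490D of SIG3 sits above BnaC04g26820D in drought and control leaves and below it in heat, and BnaC09g43350D is the highest SIG4 copy in every library.

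Over the family, 17 of the 20 copies passed the filter and were tested. In drought 2 were called higher and 0 lower, against 12% of all genes called (5.12% higher and 6.87% lower). For the 0 lower, voom on recovered reads called 1 copy lower (BnaA02g01830D, with a log2 difference of -2.35), against 4899 of 42784 genes called lower by voom. By limma 14 of the 17 copies had an unadjusted p under 0.05 in either direction, against 52.3% of all genes. Heat gave 1 copy higher and 4 lower, against 25.6% of all genes called (14.4% higher and 11.2% lower). In heat against drought 2 were called higher and 4 lower, against 28.6% (17.5% higher and 11.1% lower). With TMM scaling 0 of the 17 were called higher there and 4 lower, since BnaA02g01830D (0.96) and BnaA04g21190D (0.91) came under 2-fold. The counts over all genes moved too, from 7756 higher and 4891 lower of 44260 as deposited to 5449 and 6567 of 44145 with TMM scaling. By adjusted p alone, 13, 13 and 14 copies passed in those comparisons, against 46.0%, 67.7% and 69.6% of all genes.

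**Figure D3:**
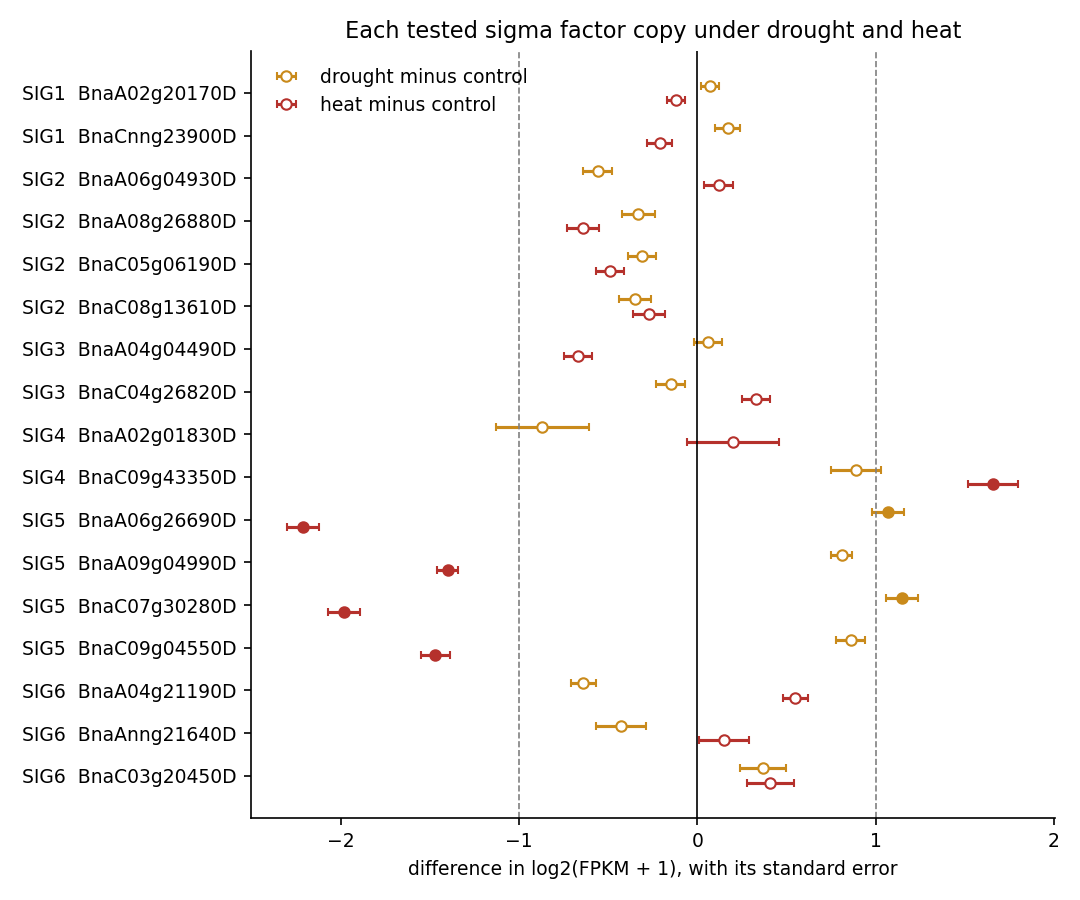
Difference in log2(FPKM + 1) from control (horizontal axis) of each of the 17 tested copies in drought and heat, with its standard error; filled circles were called and dashed lines mark 2-fold. The filled circles are the 4 SIG5 copies and BnaC09g43350D of SIG4 in heat, and BnaA06g26690D and BnaC07g30280D of SIG5 in drought.

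Of the 6 locus sums, limma called 0 in drought, against 12.4% of all loci, and 4 had an unadjusted p under 0.05, against 62.5%. Voom also called 0, while over all 16186 loci it called 1042 higher and 1716 lower. In heat 2 were called (SIG4 and SIG5), against 24.8% of all loci, and likewise 2 in heat against drought, against 28.2%. By adjusted p alone the counts were 3, 6 and 5, against 58.4%, 76.5% and 77.9%. Libraries did not overlap for 4 loci in drought against control and for 6 in heat against control and in heat against drought, where 63.5%, 78.6% and 78.9% of all loci did not overlap. Copies parted from their duplicates by the call rule in 2, 4 and 2 cases of 17, against 7.14%, 17.6% and 19.2% of all copies tested in this way. Where a locus has 2 tested copies, their differences are the same number with opposite signs, so each such parting counts as 2 cases. All of these calls are such pairs: SIG4 in drought, SIG3 and SIG4 in heat, and SIG3 in heat against drought. The shares over all copies hold such pairs too. These counts rest on few genes, and no test sets them against the background.

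The order of the 6 levels changed with the stress. In control leaves it was SIG5, SIG1, SIG2, SIG6, SIG3 and SIG4, and no neighbours overlapped. Drought leaves had SIG5, SIG1, SIG2, SIG3, SIG6 and SIG4, where SIG3 and SIG6 overlapped. Heat leaves had SIG1 first, then SIG2, SIG5, SIG6, SIG3 and SIG4. There SIG5 overlapped with SIG2 above it and with SIG6 below it.

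The summed sigma factor FPKM was 564 ± 15.3 in drought, 306 ± 10.2 in heat and 430 ± 4.62 in control leaves (SD, n = 3 each). SIG5 made up 57.5 ± 0.517% of it in drought, 18.1 ± 1.08% in heat and 39.7 ± 0.705% in control leaves. SIG1 made up 21.9%, 33.0% and 26.4% in the same groups, SIG2 9.69%, 19.8% and 17%, SIG6 4.82%, 16.8% and 8.97%, and SIG3 5.2%, 8.64% and 6.94%. SIG4 was 0.892%, 3.69% and 1.02%. Shares of a whole are tied to each other, so those of the other loci move when SIG5 does.

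**Figure D4:**
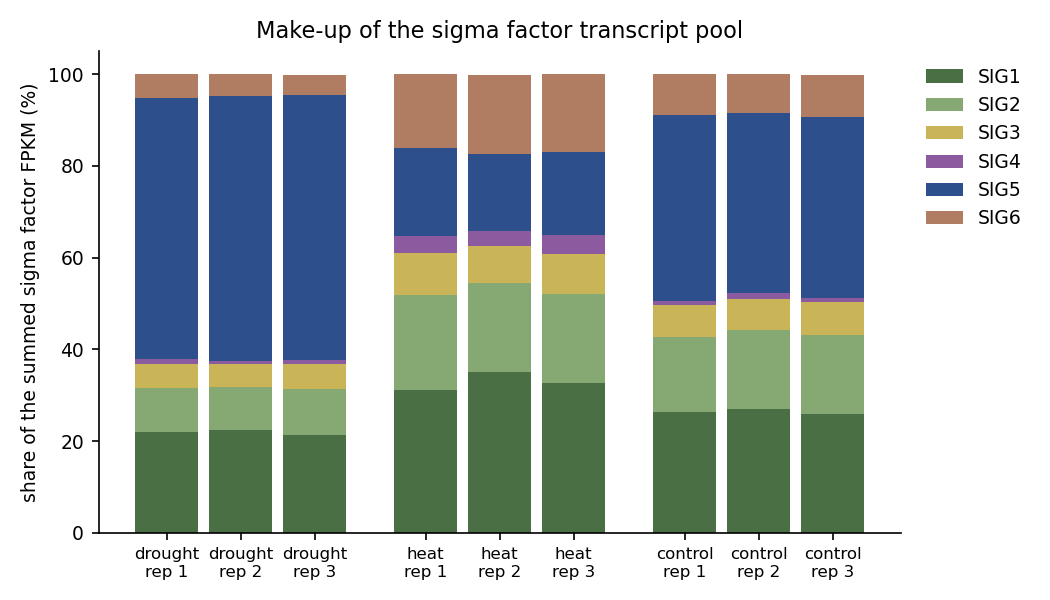
Share of each sigma factor locus in the summed sigma factor FPKM (vertical axis, percent) in each of the 9 libraries, drought and heat left of control. SIG5 spans 56.9 to 57.8% of the bar in drought, 16.9 to 19.1% in heat and 39.2 to 40.5% in control leaves.

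The genes that work with sigma factors were taken from lists of textbook members and read as sums per locus. Over all loci the median log2 difference from control was -0.05 in drought and 0.19 in heat. In drought 5.08% of all loci were called higher and 7.31% lower, and 62.5% had an unadjusted p under 0.05. In heat 14.5% were called higher and 10.4% lower, and 77.9% had an unadjusted p under 0.05. These shares are from limma, and the limma counts below are to be read against them. Voom called 1042 of 16186 loci higher and 1716 lower in drought. In heat it called 2948 higher and 2114 lower. The median over single genes was 0.16 in heat as deposited and 0.00 with TMM scaling.

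Of the proteins tightly bound to the bacterial-type polymerase, 13 loci were tested and 8 rose in heat, against 14.5% of all loci called higher, with a list median of 1.3. PTAC12, also known as HEMERA, rose to 56.1, 58.6 and 63.8 FPKM in heat against 15.6, 17 and 15.6 FPKM in control leaves (log2 change 1.82, adjusted p = 1.86e-10). FLN1, a fructokinase-like subunit, averaged 79.7 FPKM in heat against 23.1 FPKM in control leaves. In drought limma called 0 of the 13, against 7.31% of all loci called lower. Voom called 0 as well, against 1716 of 16186 loci called lower by voom. By limma 12 had an unadjusted p under 0.05, against 62.5% of all loci. The median was -0.43, with PTAC12 at 9.08 against 16.1 FPKM and PTAC10 at 21.8 against 30 FPKM in control leaves.

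The phage-type polymerases, the nuclear-encoded enzymes beside the sigma-dependent one, all rose in heat (3 of 3). RPOTp, the plastid enzyme, had 6.51, 6.67 and 5.66 FPKM in drought, 93.7, 95.9 and 96.7 FPKM in heat and 14.4, 14.2 and 16.4 FPKM in control leaves. It rose in heat by a log2 change of 2.60 (adjusted p = 8.25e-12) and fell in drought by -1.14 (adjusted p = 4.86e-08), where 7.31% of all loci were called lower; with quantile scaling the drought call was lost. RPOTm, the mitochondrial enzyme, averaged 14.6 FPKM in heat against 2.66 FPKM in control leaves, and RPOTmp, found in both organelles in Arabidopsis, averaged 2.12 FPKM in drought and 11.7 FPKM in heat against 2.79 FPKM in control leaves.

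Among 6 partners and modifiers of sigma factors, PRDA1, a nucleoid protein needed for the bacterial-type polymerase, rose in heat to an average of 75.8 FPKM against 28.3 FPKM in control leaves (log2 change 1.39, adjusted p = 4.98e-10). SIB1, a sigma factor binding protein, had 93.1, 99.3 and 94.5 FPKM in drought, 105, 111 and 118 FPKM in heat and 59.5, 50.8 and 59.0 FPKM in control leaves. Its log2 differences of 0.75 and 0.97 were under the 2-fold threshold. SIB2, DG1 and SIB1 lay at 0.95 to 0.99 in heat, close to the threshold, and 4 members were called without heat replicate 1, 3 without control replicate 3, and 2 without heat replicate 2 or control replicate 1. In drought limma called 0 of the 6 and voom 1, and 5 had an unadjusted p under 0.05.

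Light signalling genes that act on SIG5 in Arabidopsis were mixed in heat: of 6, CRY1 and CRY2 rose and HY5 and HYH fell, against 10.4% of all loci called lower, and with TMM scaling the call of CRY1 was lost. HY5, a transcription factor that binds the SIG5 promoter in Arabidopsis, had 71.8, 69.1 and 84.3 FPKM in drought, 15, 14.3 and 16.6 FPKM in heat and 49.8, 45.2 and 43.2 FPKM in control leaves, so its groups stood in the same order as those of SIG5. Its log2 change was -1.53 in heat (adjusted p = 3.54e-09), and 0.69 in drought (adjusted p = 1.36e-05), under the threshold. HYH, its close relative, had 54.6, 46.5 and 62 FPKM in drought, 8.44, 9.64 and 7.82 FPKM in heat and 49.5, 54.7 and 45.5 FPKM in control leaves, a log2 change of -2.40 in heat (adjusted p = 5.07e-10), and its drought and control libraries overlapped. CRY2, a blue light receptor, averaged 300 FPKM in heat against 115 FPKM in control leaves. PHYB, a red light receptor, averaged 14.5 FPKM in drought against 20.1 FPKM in control leaves. In drought limma and voom called 0 of the 6, and 4 had an unadjusted p under 0.05. The share of all loci whose groups stand in the order of those of SIG5 was not counted. The part of HY5, or of the other light signalling genes, in the SIG5 values was not tested.

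Core clock genes moved in the heat libraries in which SIG5 was low: of 10, 6 rose and 2 fell, against 14.5% and 10.4% of all loci. LHY, a morning gene, had 280, 281 and 250 FPKM in drought, 5.14, 5.01 and 4.32 FPKM in heat and 325, 329 and 328 FPKM in control leaves, a log2 change of -5.82 in heat (adjusted p = 1.42e-15). CCA1, its relative, averaged 90.7 FPKM in drought, 15 FPKM in heat and 75.2 FPKM in control leaves, a log2 change of -2.26 in heat (adjusted p = 2.38e-12). In drought limma called 0 of the 10, against 12.4% of all loci called either way. Voom called 1, while over all 16186 loci it called 1042 higher and 1716 lower. By limma 9 had an unadjusted p under 0.05, against 62.5% of all loci. PRR5, a later-phased clock repressor, averaged 3.91 FPKM in drought against 1.79 FPKM in control leaves, and PRR9 averaged 63.0 against 43.0 FPKM. The part of the clock, or of the hour of harvest, in the SIG5 values was not tested.

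Of nucleoid and transcript factors, 6 of 8 loci had rows, and only WHY1, a plastid DNA-binding protein, was called in heat, with 97.4 FPKM against 23.9 FPKM in control leaves (log2 change 1.98). PTAC16 averaged 167 FPKM in drought and 293 FPKM in heat against 248 FPKM in control leaves, and RHON1 averaged 22.2 FPKM in drought against 30.8 FPKM in control leaves. Of 6 plastid signalling genes, GLK2, a regulator of photosynthesis genes, rose in heat to 259 FPKM against 99.1 FPKM in control leaves (log2 change 1.38). GUN4 averaged 146 FPKM in drought against 280 FPKM in control leaves, HEMA1 averaged 323 against 203 FPKM, and GUN5 averaged 280 FPKM in heat against 552 FPKM in control leaves, none of them called. In drought limma and voom called 0 of 6 in either list, where 4 and 6 had an unadjusted p under 0.05.

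The genes that sigma factors act on could hardly be read here. The labels give polyadenylated RNA, and most plastid transcripts carry no poly(A) tail. The rows read here are Brassica napus gene models whose best Arabidopsis match is a plastid gene. Whether their reads come from the plastid genome was not tested. Of 55 plastid genome loci with such rows, 9 were tested. In drought limma and voom called 0, with 3 at an unadjusted p under 0.05. In heat limma called 0 and voom 3, with 6 at an unadjusted p under 0.05. Over all 16186 loci voom called 2948 higher and 2114 lower in heat. The match to psbA averaged 9.88 FPKM in drought, 9.22 FPKM in heat and 5.94 FPKM in control leaves, that to rpoC2, a polymerase core subunit, was at 0 in all libraries, and those to rpoA, rpoB and rpoC1 were at or under 0.191 FPKM in each group mean.

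**Figure D5:**
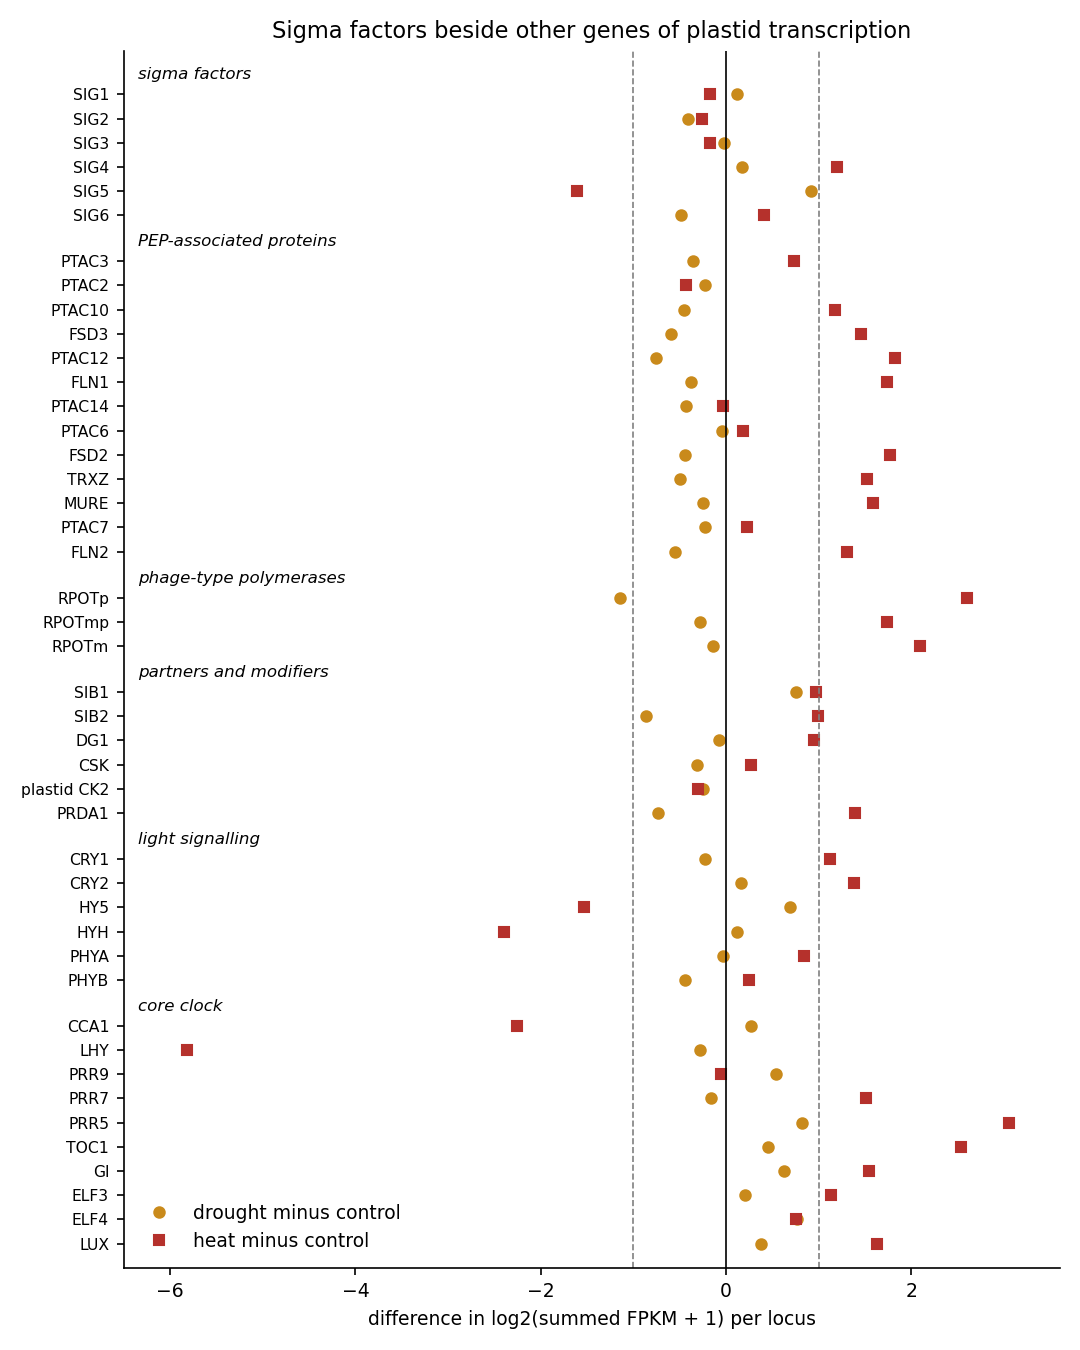
Difference from control in log2(summed FPKM + 1) per locus (horizontal axis) of the 6 sigma factors and of 5 gene lists, in drought (circles) and heat (squares); dashed lines mark 2-fold. The phage-type polymerases and 8 of 13 polymerase-associated loci lie right of the upper line in heat, while SIG5, HY5, HYH, CCA1 and LHY lie left of the lower one.

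The loci whose pattern was most like that of each sigma factor were named by Pearson's r of log2 summed FPKM over the 9 libraries, among 4522 or 4523 loci with a mean of at least 5 FPKM and a group difference of at least 1. These libraries fall into 3 groups, which the loci share, so r is a description. Nearest to SIG5 were AT4G21910, a MATE efflux protein, AT3G55580, an RCC1 family protein, and PSY, the phytoene synthase of carotenoid synthesis, each with r = 0.999. PSY had 481, 473 and 471 FPKM in drought, 63.5, 57.7 and 59.8 FPKM in heat and 244, 240 and 232 FPKM in control leaves. Its groups stood in the order of those of SIG5 with no overlap, which its choice by r largely sets.

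Nearest to SIG6 were PDE327 (r = 0.995), ABCC1 (0.994) and EMB1865 (0.993), a CRM domain protein with 25.4 FPKM in drought, 62.3 FPKM in heat and 42.8 FPKM in control leaves on average. SIG4 was nearest to AT2G36950 (0.985), ELP2 (0.972) and AT3G04350 (0.969). For SIG2 they were AT5G35735 (0.984), SCPL15 and FRO8 (0.982 each). SIG1 and SIG3, which varied least, had lower values, with XTH28 (0.961), AGP20 (0.95) and AT2G24680 (0.947) for SIG1 and FRO2 (0.914), AT2G28200 (0.911) and AT3G15900 (0.904) for SIG3.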

How the data were processed

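Leaf RNA of Brassica napus was measured in 3 drought, 3 heat and 3 control libraries. Reads were aligned with HISAT2, per the submitters' processing notes. Its version, the genome build, the annotation and the counter are not stated in the sources used. The authors deposited FPKM values, 1 per gene and library, scaled by coding length and assigned reads; the unit is read from the values, since steps of whole reads come out for 99.4 to 99.5% of genes (tolerance 0.01), and RPKM would describe it equally well. Percent identity and coverage against the best Arabidopsis protein are as deposited by the authors, who do not state the search. The column names fit titles of both species apart from the prefix and were assigned through the line code and the gene models.

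Copies were summed per Arabidopsis locus. Tests used limma 3.58.1 in R 4.3.3 (trend and robust moderation) on log2(FPKM + 1), which understates changes of low genes, for 44260 genes, 16186 loci and 39930 copies set against the other copies of their locus, expressed at 1 FPKM or more in 3 or more of the 9 libraries, with Benjamini-Hochberg adjustment over all features. A call needs a 2-fold change and an adjusted p under 0.05. The scripts were tested on simulated data. Alternatives were pseudocount 0.1, no filter or one of 5 FPKM, TMM or quantile scaling, no trend or robust moderation, a replicate block, only the groups compared, each replicate left out, voom on recovered reads, and no fold threshold; quantile scaling and left-out replicates for the shares, and all settings for the gene lists, were added after seeing the data. Named genes are all sigma factor copies, the 2 loci per list with the smallest adjusted p in each stress, and the 3 nearest loci by r; CRY1, SIB2, DG1, HYH's drought value, the polymerase core genes and the markers' values outside that rule were added with their values known. Members and lists were chosen with earlier results of these data known. No sequences are shown, as none were used here.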

Additional observations from a re-analysis of the deposited data

How the results depend on the processing

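The heat calls of SIG5 (-1.8 to -1.55) and SIG4 (1.03 to 1.38) kept their direction and call under all 18 alternatives run, and so did SIG5 in heat against drought (-2.82 to -2.47). The smaller heat differences from control kept their sign but not their size. They were 0.22 to 0.47 for SIG6, -0.45 to -0.23 for SIG2, -0.36 to -0.12 for SIG1 and -0.36 to -0.11 for SIG3. The median over all loci in heat was 0.19 as deposited and 0.02 with TMM. With TMM scaling, SIG5 in drought passed the threshold (1.02), SIG3 in drought turned to 0.07 and SIG2 in heat against drought to -0.14, and 1 locus sum was called in drought. SIG4 in heat against drought lost its call with TMM (0.77) and quantile scaling (0.78), which left 1 locus called in that comparison; over left-out replicates it ranged from 0.91 to 1.15 and the count from 1 to 2. Copies called in drought numbered 4 with pseudocount 0.1, where 3167 of 44260 genes were called higher and 4813 lower. They numbered 4 with voom, where 3148 of 42784 genes were called higher and 4899 lower. Without the fold threshold 13, 13 and 14 copies passed, by construction. Copies called in heat against drought were 0 higher and 4 lower with TMM, where 5449 of 44145 genes were called higher and 6567 lower. They were 1 higher and 4 lower with quantile scaling, where 5881 of 44177 genes were called higher and 5952 lower. Copies called against their duplicates numbered 3 with pseudocount 0.1 (2 to 3 over left-out replicates), 1 with no filter, 0 with a 5 FPKM filter and 0 with only the groups compared in drought, where SIG4 copies were not tested together; 2 with the 5 FPKM filter and 2 with TMM in heat (2 to 4 over left-out replicates); and 4 with pseudocount 0.1 and with quantile scaling in heat against drought. This comparison was not run with voom. Over all 39930 copies, pseudocount 0.1 gave 2041 higher and 2013 lower in drought. In heat against drought it gave 5183 higher and 5258 lower, and quantile scaling gave 3827 and 3826 of 39844. Single copies turned in heat with TMM (BnaA06g04930D -0.06, BnaAnng21640D -0.03) and without heat replicate 1 (BnaA02g01830D -0.02, up to 0.53 over left-out replicates). In heat against drought BnaC03g20450D turned to -0.16 with TMM, -0.24 with quantile scaling and -0.02 without drought replicate 1 (up to 0.11 over left-out replicates), and BnaC08g13610D to -0.19 with TMM. Of the lists, called loci were 0 phage-type polymerases in drought with quantile scaling; 1 partner in drought, and 2 in heat, with pseudocount 0.1 and with voom (1 to 4 in heat over left-out replicates); 1 clock gene in drought with pseudocount 0.1, quantile scaling and voom; 2 plastid signalling genes in heat with TMM; 1 to 2 nucleoid factors in heat over left-out replicates (2 without control replicate 1); and 3 plastid genome loci in heat with pseudocount 0.1 and voom, 1 with no filter and 0 to 1 over left-out replicates (1 without heat or control replicate 2). Over all 16186 loci, pseudocount 0.1 gave 1022 called higher and 1657 lower in drought, and 2905 higher and 2082 lower in heat. The SIG5 share in drought was 56.3% with quantile scaling. The cause of these shifts was not tested. Same-numbered libraries did not deviate together (r -0.018 to 0.025, against -0.025 to 0.027 for other numbers), and with the replicate block the counts were 2, 5 and 6 copies and 0, 2 and 2 loci, as without it. Depth limits the SIG4 copies other than BnaC09g43350D, at 0 to 40 reads per library.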
